A study of Mus musculus with 4 samples.

Results

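Chemokines are small secreted proteins that draw white blood cells into a tissue. The 9 genes described here encode chemokines that fibrocartilage and connective tissue cells can make: Cxcl1, Cxcl2, Cxcl5, Cxcl12, Cxcl13, Cxcl14, Ccl2, Ccl7 and Cx3cl1. They were taken by symbol from the gene tables, and all 9 were found among 32285 listed genes. Transcripts were measured by single-cell RNA sequencing in 4 libraries made from the intervertebral discs of mouse tails, which are pads of fibrocartilage joining neighbouring vertebrae. The mice were wildtype C57BL/6 females aged 12 weeks. Injured discs, from tail levels CC5/6 to CC9/10, had been punctured on both sides with a 30G needle, and cells were collected 7 days later. Control discs were unpunctured and came from levels CC12/13 to CC16/17 of the same animals, so injury and tail level cannot be told apart. There was 1 control and 1 injured library in each of 2 rounds. Each library pooled animals (6 mice and 30 discs per group, per the labels, which do not say whether this holds for each round), and its suspension was frozen, thawed and sorted for viable cells with DAPI before capture.

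Cxcl1, Cxcl2 and Cxcl5 are neutrophil attractants that act through the receptor Cxcr2. Ccl2 and Ccl7 draw monocytes through Ccr2. Cxcl12 retains and guides leukocytes through Cxcr4 and is scavenged by Ackr3, Cxcl13 guides B cells through Cxcr5, Cxcl14 is a broadly expressed tissue chemokine, and Cx3cl1 is a membrane-tethered ligand of Cx3cr1. In connective tissue cells the transcription factor NF-kappaB, switched on by interleukin 1 or tumour necrosis factor, is a known inducer of Cxcl1, Cxcl2 and Ccl2. The soft centre of a disc is the nucleus pulposus; around it runs the fibrous annulus, cartilage-like on its inner side and fibroblast-rich on its outer side.

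In mm10, which is GRCm38, Cxcl1 (ENSMUSG00000029380) lies at chr5:90891241-90893115 and Cxcl2 (ENSMUSG00000058427) at chr5:90903871-90905938, both on the plus strand. Cxcl5 lies at chr5:90759360-90761624 and Cxcl13 at chr5:95956951-95961068, also on the plus strand. Ccl2 at chr11:82035571-82037453 and Ccl7 at chr11:82045712-82047525 are neighbours on the plus strand. Cxcl12 lies at chr6:117168535-117181367 (plus), Cxcl14 at chr13:56288643-56296551 (minus) and Cx3cl1 at chr8:94772009-94782427 (plus). Of the 50-base stretches of Cxcl2 transcripts, 5.84% also occur in Cxcl3, and how many Cxcl2 counts this affects was not measured. Ccl2 overlaps Gm17268 on the other strand, and whether counting used strand is not given in the sources used here.

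The promoters of Cxcl1 and Cxcl2 are shown because their transcripts carried the main change, beside that of Cxcl13, which changed the other way. They are RefSeq promoter sequence of build GRCm38.p6, trimmed to end before the annotated gene start, at chr5:90890995-90891240, chr5:90903649-90903870 and chr5:95956689-95956938, plus strand. Capitals mark bases that match the NF-kappaB consensus.
Cxcl1: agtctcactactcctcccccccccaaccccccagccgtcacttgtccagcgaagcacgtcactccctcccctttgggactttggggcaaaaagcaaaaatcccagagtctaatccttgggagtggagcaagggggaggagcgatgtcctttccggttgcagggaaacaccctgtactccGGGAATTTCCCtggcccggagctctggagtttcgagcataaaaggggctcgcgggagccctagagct
Cxcl2: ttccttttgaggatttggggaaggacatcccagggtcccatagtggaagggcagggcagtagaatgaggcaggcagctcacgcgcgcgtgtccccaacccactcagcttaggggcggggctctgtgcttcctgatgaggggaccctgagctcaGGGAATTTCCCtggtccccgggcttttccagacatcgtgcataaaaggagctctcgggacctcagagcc
Cxcl13: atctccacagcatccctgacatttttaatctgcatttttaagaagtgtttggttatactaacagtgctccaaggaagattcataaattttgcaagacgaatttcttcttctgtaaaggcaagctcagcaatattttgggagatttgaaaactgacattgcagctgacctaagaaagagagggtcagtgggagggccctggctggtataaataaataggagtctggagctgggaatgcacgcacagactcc

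Promoters of 6 of the 9 genes were matched, and the 250 bases before each RefSeq start were searched on both strands. The first matched base lay at position -71 in Cxcl1 and -97 in Cxcl2, and in both the plus-strand and minus-strand matches overlapped, offset by 1 base. The Cxcl13, Cxcl12, Cxcl14 and Cx3cl1 windows held no match. Of all 32851 mouse promoter windows, 7.25% held one, and a match is a description of letters, not of binding.

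Depth differed between the groups. At a minimum of 250 detected genes the round 1 libraries held 378 control and 778 injured cells, and the round 2 libraries 856 and 1834. Median UMIs (distinct transcript molecules) per cell were 1061.5 and 836 in controls against 7033.5 and 4635 in injured libraries. In round 1, 104 control cells had barcodes with 29.2 to 44.8 times as many UMIs in the injured library, and 55 more had similar UMIs in both libraries. Values "without shared barcodes" leave out these cells. Levels are given in CPM, the counts of a gene per 1000000 UMIs of the same cells. Cells formed 18 clusters without the 9 chemokines among the variable genes, of which 13 were named from marker genes: 5 inner annulus-like, 4 outer annulus-like, and 1 each nucleus pulposus-like, macrophage-like, endothelial-like and mural-like. Disc cells, the union of the inner, outer and nucleus pulposus-like classes, numbered 273 control and 538 injured cells in round 1 and 384 and 1543 in round 2. The nucleus pulposus-like cluster was 10.6% and 17.2% of control disc cells in rounds 1 and 2, but 0.929% and 0.0648% of injured ones. Its cells had a median of 46.0% mitochondrial UMIs. In free RNA, read from barcodes under 100 UMIs, Cxcl2 stood at 1076 and 413 CPM in the injured libraries of rounds 1 and 2 and at 150.3 in control round 2, so single UMIs in any cell type can carry a background. Control round 1 lists no barcode that small, so its free RNA is unknown.

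**Figure D1:**
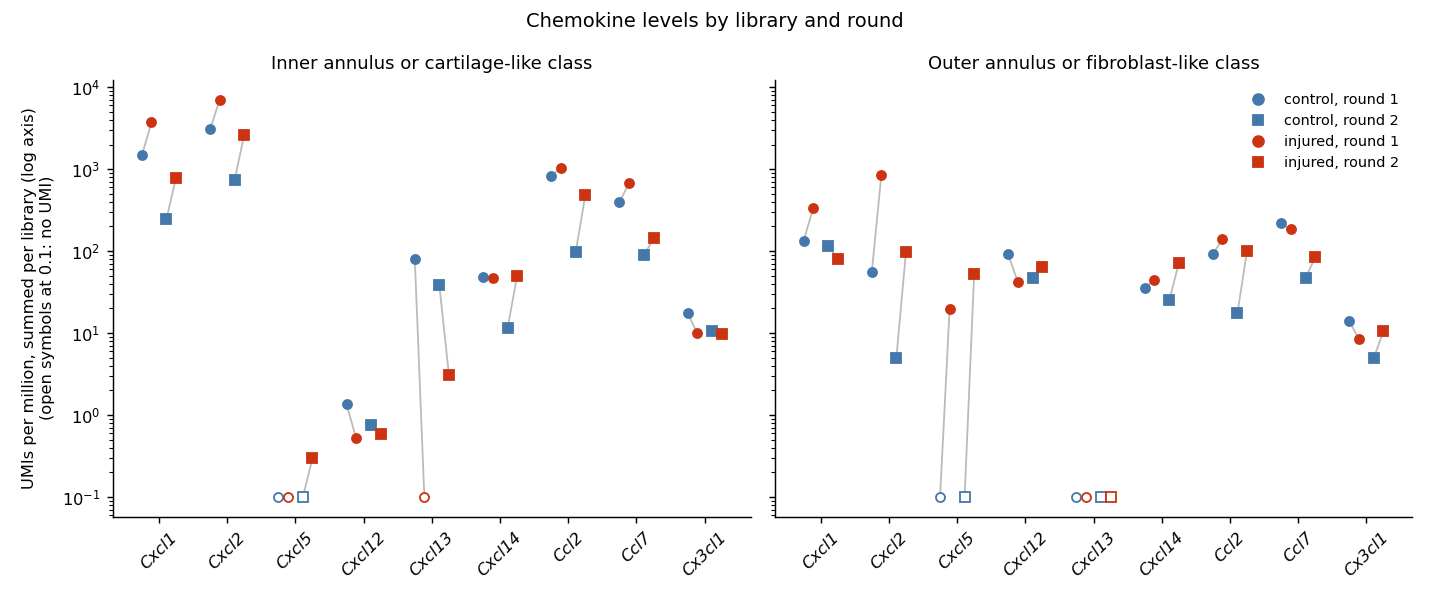
Level of each chemokine (CPM, log axis) in the inner and outer annulus-like classes, 1 point per library with lines joining the control and injured library of a round; open symbols mark no UMI. In the inner class Cxcl2 went from 3069 to 7069 CPM in round 1 and from 747 to 2620 in round 2, while Cxcl13 went from 80.8 to 0 and from 38.2 to 3.11.

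Cxcl1 and Cxcl2 transcripts were more abundant in disc cells of injured than of control discs in both rounds, at about the same ratio each time. Cxcl1 stood at 1184 and 3514 CPM in control and injured disc cells of round 1, and at 203 and 560.0 in those of round 2. The rounds lay further apart than the groups, since injured round 2 was below control round 1. Within rounds, the ratio of injured to control Cxcl1 was 2.97 (95% counting interval 2.80 to 3.16) and 2.76 (2.48 to 3.07), and 3.64 in round 1 without shared barcodes. Cxcl2 stood at 2413 and 6695 CPM in control and injured cells of round 1, and at 541 and 1803 in round 2. Its ratios were 2.78 in round 1, or 3.64 without shared barcodes, and 3.33 in round 2. Here too the groups overlapped across rounds, and every injured library exceeded its own control.

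With round left out of the model and low counts filtered out, no chemokine passed edgeR's quasi-likelihood test in disc cells, where 2 of 11212 genes (0.0178%) did. The log2 fold change was 1.57 ± 1.04 (SE, 2 libraries per group; edgeR adjusted p = 0.801) for Cxcl1 and 1.55 ± 0.854 (edgeR adjusted p = 0.756) for Cxcl2. With no filter, where 298 of 20392 genes were called, both were called, at 1.70 (edgeR adjusted p = 0.00998) and 1.68 (edgeR adjusted p = 0.00976). One library could turn the Cxcl1 value: leaving out each in turn gave -0.24 to 3.42, the lowest without injured round 1, and only without injured round 2 was it called (2.38, edgeR adjusted p = 0.0200). Cxcl2 ranged from 0.36 to 3.07 and was likewise called only without injured round 2 (2.22, edgeR adjusted p = 0.0148). Libraries of a round come from the same animals, so the round was also fitted as a block, which called 400 genes, 3.57% of those tested (1.66% higher, 1.91% lower). In that fit Cxcl1 rose by 1.58 ± 0.311 (edgeR adjusted p = 0.0226) and Cxcl2 by 1.67 ± 0.353 (edgeR adjusted p = 0.0300) on the log2 scale. Without the shared barcodes, where 1.22% of genes were called, the blocked values were 1.72 and 1.86, and both missed the threshold (edgeR adjusted p = 0.0527 for each). Of the 9 chemokines, 8 passed the filter on low counts in disc cells (2.53 CPM in 2 libraries), Cxcl13 only through the controls, where it was high. Of these 8, Cxcl1, Cxcl2, Cxcl14, Ccl2 and Ccl7 were higher in injured disc cells in both rounds, as were 27.9% of all genes tested.

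**Figure D2:**
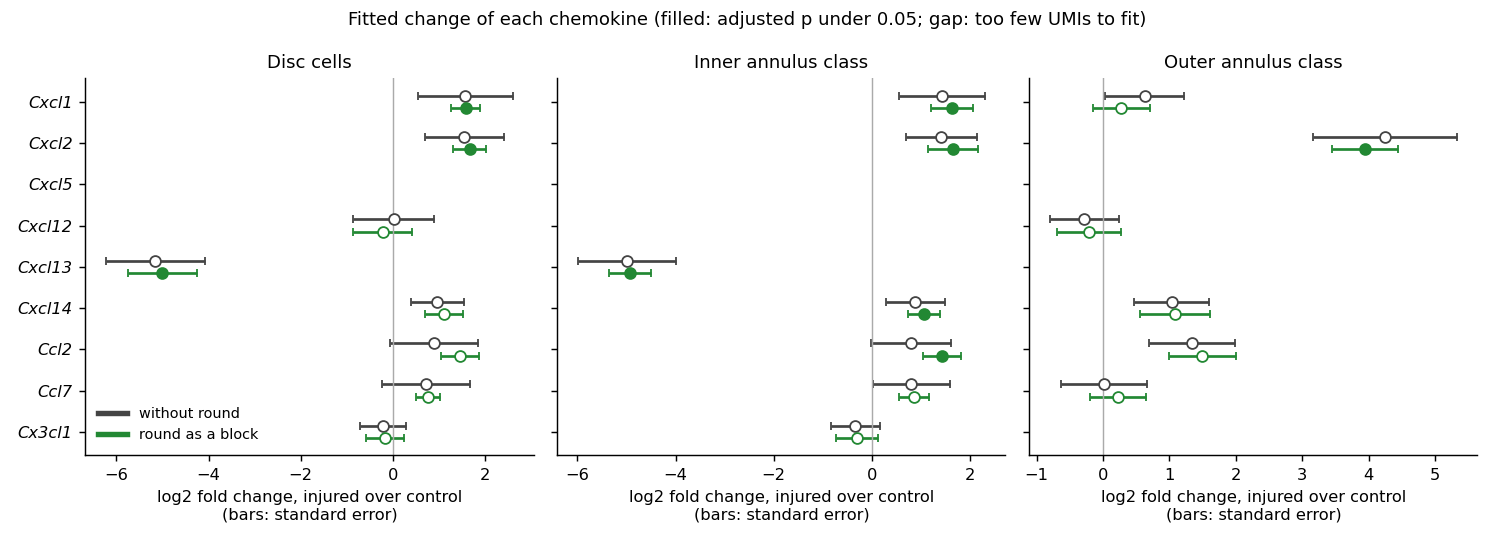
Log2 fold change of injured over control (± SE) for each chemokine that passed the filter, in disc cells, the inner class and the outer class, fitted without and with the round as a block; filled symbols have an edgeR adjusted p under 0.05. The blocked errors are smaller for Cxcl1 in disc cells (0.311 against 1.04), and no symbol is filled in the fit without the block. Cxcl13 entered the disc-cell fit only through the controls.

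The inner annulus-like class held most Cxcl1 and Cxcl2 UMIs. Of Cxcl1 UMIs in cells it held 81.4% and 97.1% in control and injured round 1 and 58.5% and 92.5% in round 2, against 69.8%, 85.2%, 60.5% and 64.0% of all UMIs. Cxcl1 in this class stood at 1481 and 3717 CPM in round 1 and 246 and 790 in round 2. The blocked fit, which called 905 of 10701 genes (8.46%, of which 4.49% higher and 3.96% lower; 13, or 0.121%, without the block), gave a rise of 1.64 ± 0.429 for Cxcl1 (edgeR adjusted p = 0.00573) and 1.64 ± 0.511 for Cxcl2 (edgeR adjusted p = 0.0265). Both calls held without shared barcodes, where 4.91% of genes were called, at 1.78 (edgeR adjusted p = 0.0146) and 1.83 (edgeR adjusted p = 0.0293). Without the block neither was called (edgeR adjusted p = 0.755 for Cxcl1 and 0.694 for Cxcl2).

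Different clusters made up the inner class in the 2 groups. A cluster led by Cnmd and Grem1, genes of resting cartilage and of bone morphogenetic protein inhibition, took 37.4% and 54.9% of control disc cells and 5.76% and 6.09% of injured ones. Without shared barcodes it was 102 of 172 disc cells in control round 1. A cluster led by the acute-phase genes Saa1 and Saa2 took 3.30% and 2.08% of control and 32.3% and 15.04% of injured disc cells. This Saa1-led cluster had Cxcl2 among its 10 leading genes. It held 68.7% of Cxcl2 UMIs in injured round 1 and 46.0% in injured round 2, against 35.3% and 14.4% of all UMIs. In its cells Cxcl2 stood at 12040 CPM in injured round 1 and 5857 in injured round 2, and Cxcl1 at 6308 and 1409. A second injured-rich cluster, led by Il11 and Npy, had near-equal Cxcl2 levels of 5044 and 4975 CPM. A cluster led by Gdf5 had Cxcl2 at 1472 CPM in injured round 1, 1640 in 16 cells of control round 2 and 1843 in injured round 2. In control round 1 it stood at 8588 CPM in 78 cells, all but 4 of which carried shared barcodes, and those 4 had no Cxcl2 UMI. The M1ap- and Fmod-led cluster reached 2013 CPM at most in its 2 libraries with at least 20 cells. Levels between clusters are given as a description, since clusters were formed from the same cells.

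**Figure D3:**
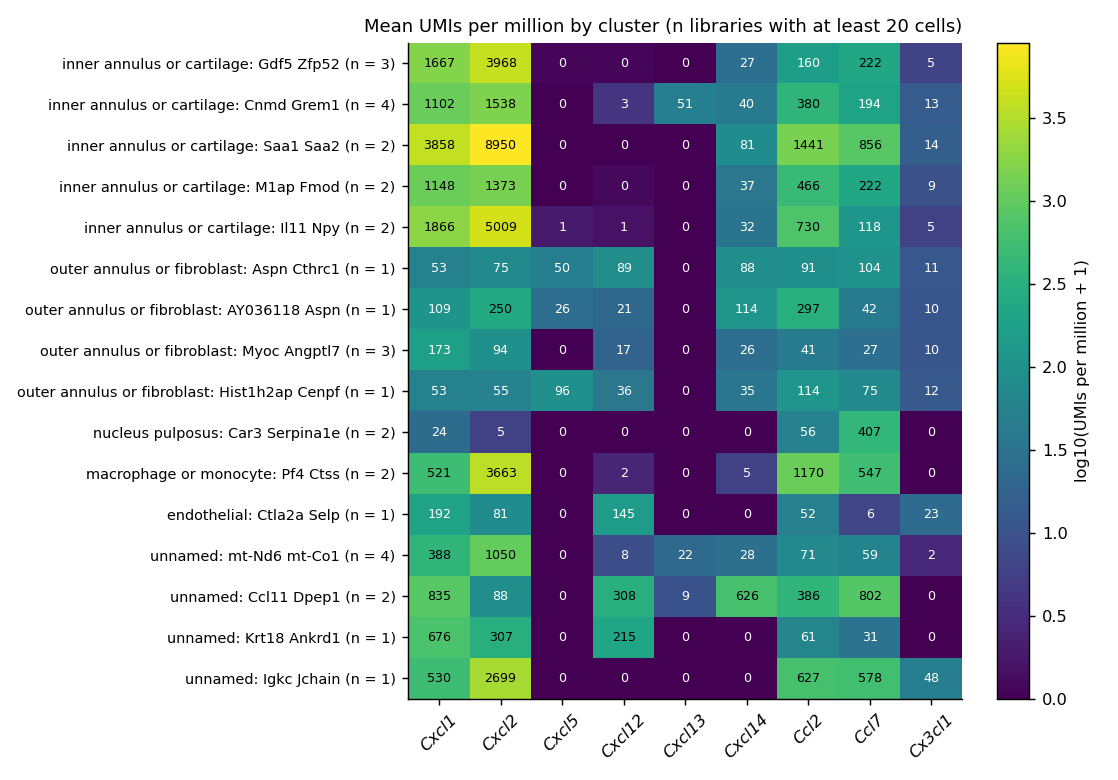
Mean CPM (colour, log scale) of each chemokine in each cluster over the libraries with at least 20 cells of it, the number of which is given beside the cluster name. The Saa1-led cluster has the brightest Cxcl2 cell, with a mean of 8950 CPM over 2 libraries, and Cxcl13 is highest in the Grem1-led cluster, with a mean of 50.6 CPM over 4 libraries.

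The Grem1-led cluster was the only disc cluster with at least 20 cells in every library, so it allowed a comparison within 1 cluster. Cxcl1 there stood at 1241 and 2375 CPM in control and injured round 1, and 109 and 683 in round 2. Cxcl2 stood at 2196 and 1785 CPM in round 1 and 244 and 1925 in round 2, so the rounds differed in direction. The fit without a block called 0 of 5987 genes (120 had an unadjusted p under 0.05), and edgeR with the block called 59, or 0.985%. With the block Cxcl1 rose by 1.81 ± 0.443 (edgeR adjusted p = 0.00809). Cxcl2 had a value of 1.37 ± 0.497 (edgeR adjusted p = 0.242). Injured round 1 held 31 cells of the cluster, which limits the precision.

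The share of cells with a transcript was also higher in the injured library of each round for Cxcl1 and Cxcl2. To compare it at equal depth, each cell was thinned to 1000 UMIs, which left out 105, 26, 56 and 107 shallower disc cells of control 1, injured 1, control 2 and injured 2. After thinning, Cxcl2 was found in 17.9% and 51.0% of control and injured disc cells in round 1 and in 6.71% and 26.5% in round 2. By this share the injured libraries were both above both controls, unlike by the CPM, with an exact two-sided permutation p = 0.333, the smallest that 2 against 2 libraries allow. How many of all genes do the same by this measure was not counted. Cxcl1 was found in 23.2% and 50.2% in round 1 and 7.32% and 22.2% in round 2, where the groups overlapped (exact permutation p = 0.667). The unthinned shares of Cxcl2 were 35.5%, 66.2%, 7.55% and 35.5%. In endothelial-like cells, which can make Cxcl2 themselves and so give no clean background, 7 of 36 cells of injured round 1 and 0 of 15 of injured round 2 had a UMI before thinning, the latter with an exact 95% upper limit of 21.8%. Their median depths were 3594.5 and 2093 UMIs, against 8920 and 5297 in disc cells.

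**Figure D4:**
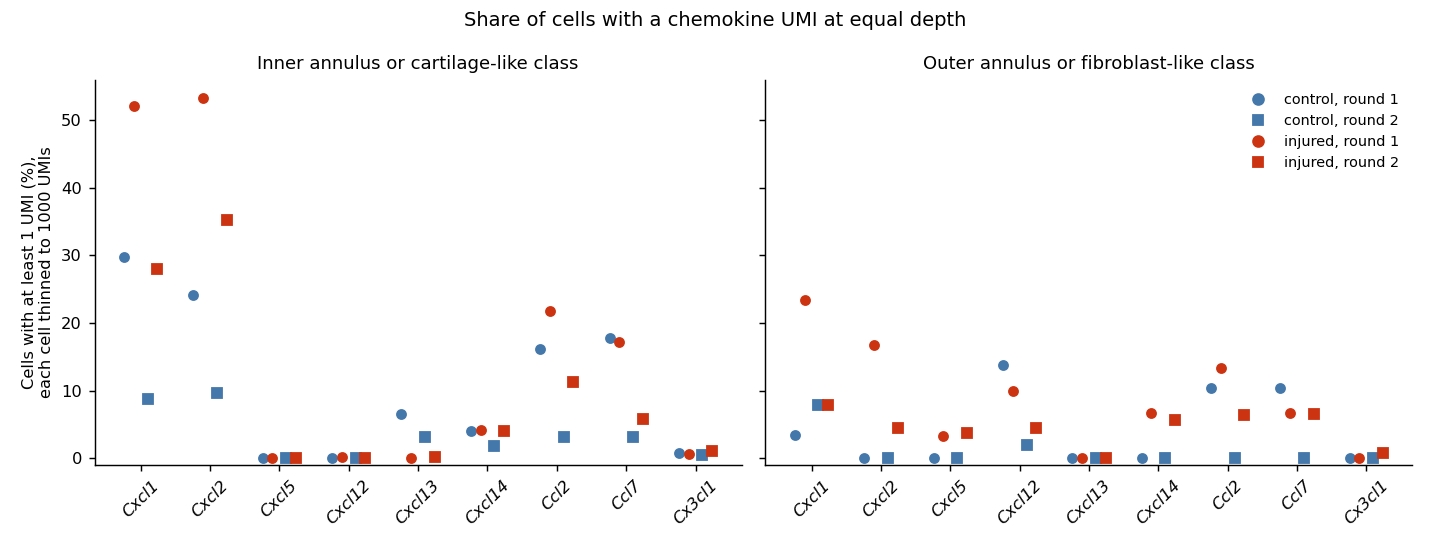
Percent of cells with at least 1 UMI of each chemokine after thinning to 1000 UMIs, in the inner and outer annulus-like classes, 1 point per library. In the inner class Cxcl2 was found in 24.2% and 9.69% of control cells and in 53.4% and 35.3% of injured cells.

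A minority of cells carried most of these transcripts. The tenth of disc cells with the most Cxcl2 UMIs held 81.8% and 63.3% of them in control and injured round 1, and 100% and 77.6% in round 2. Cells with any Cxcl2 had a median of 9 and 34 UMIs in round 1 and 10 and 13 in round 2, and single cells held up to 519, 1755, 160 and 490. Cxcl1 and Cxcl2 were often found in the same cells. At 1000 UMIs per cell, 78.2% of Cxcl1-positive disc cells of injured round 1 also had Cxcl2, against 51.0% of all disc cells, and in injured round 2 these were 61.1% and 26.5%. In controls the values were 53.8% of 39 Cxcl1-positive cells against 17.9% in round 1, and 12 of 24 such cells against 6.71% in round 2.

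The monocyte attractants Ccl2 and Ccl7 were also higher in injured disc cells in each round, Ccl2 with unequal ratios and Ccl7 with near-equal ones. Ccl2 stood at 665 and 987 CPM in control and injured round 1 and at 75.1 and 361 in round 2. Its ratio was therefore 1.49 (1.37 to 1.62) in round 1 and 4.80 (4.05 to 5.74) in round 2. Ccl7 stood at 398 and 642 CPM in round 1 and 74.6 and 124 in round 2, with ratios of 1.61 and 1.66. In free RNA Ccl7 stood at 99.6 and 126 CPM in the injured libraries and at 29.7 in control round 2, so the disc-cell level of injured round 2 was no higher than that of free RNA. In the inner class of round 2, Ccl7 went from 88.7 to 143 CPM, while Cxcl12, at 38.5 and 43.4 CPM in free RNA, stood there at 0.764 and 0.592. The part of free RNA in the Ccl7 values was not tested further. For both genes injured round 2 lay below control round 1, so the groups overlapped. Neither was called in disc cells with the block: Ccl2 had a log2 fold change of 1.45 ± 0.412 (edgeR adjusted p = 0.0845) and Ccl7 of 0.77 ± 0.260 (edgeR adjusted p = 0.136). In the inner class Ccl2 rose by 1.42 ± 0.389 with the block (edgeR adjusted p = 0.00884), and without shared barcodes the value of 1.39 missed the threshold (edgeR adjusted p = 0.106). Without the block the inner-class value of Ccl2 was not called (edgeR adjusted p = 0.867). In control round 2, 1 cell held 50 of the 129 Ccl2 UMIs of the inner class.

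Ccl2 and Ccl7 were found together in single cells. At 1000 UMIs per cell, Ccl7 was found in 60.0% and 53.2% of Ccl2-positive disc cells of control and injured round 1 and in 57.1% and 28.9% in round 2, against 17.3%, 16.6%, 2.13% and 5.99% of all disc cells. In the Saa1-led cluster Ccl2 stood at 1918 CPM in injured round 1 and 964 in injured round 2, and Ccl7 at 1327 and 385. That cluster held 73.5% and 35.4% of the Ccl2 UMIs of the 2 injured libraries. Within the Grem1-led cluster Ccl2 went from 746 to 327 CPM in round 1 and from 54.2 to 394 in round 2, so the rounds moved in opposite directions.

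Cxcl13, the B cell attractant, was lower in injured disc cells and was the chemokine with the narrowest distribution. It stood at 63.3 CPM in control round 1 and 27.6 in control round 2, against 0 and 2.10 in the injured libraries, so the groups did not overlap; 20.4% of all genes were lower without overlap. The UMI counts behind these values were 60, 50, 0 and 21. The level of control round 1 was 129 times the limit that 0 UMIs allow in injured round 1 (3 UMIs, or 0.492 CPM). The counting interval of the injured to control ratio reached up to 0.0099 there, and in round 2 the ratio was 0.0761 (0.0434 to 0.129). The disc-cell filter let the gene through only by its controls, so its blocked value there, -5.00 ± 0.750, is given with no call. In the inner class 1 injured library also reached the filter of 2.84 CPM, but the filter asks for 2 libraries and was not met without the controls. Cxcl13 fell there by 4.925 ± 0.429 with the block and by 5.01 without shared barcodes, also given with no call. Without the block the inner-class value of -4.99 was not called (edgeR adjusted p = 0.166).

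All Cxcl13 UMIs of disc cells lay in the Grem1-led cluster, in 10 control cells of round 1, 13 control cells of round 2 and 4 injured cells of round 2. A single cell held 27 of the 60 UMIs in control round 1. Within the cluster the level was 98.1 CPM in control round 1, 8.21 times the limit for 0 UMIs, and 0 in injured round 1. The counting interval of the injured to control ratio reached up to 0.1545 there. In round 2 the level was 51.1 and 53.3 CPM in control and injured cells, a ratio of 1.04. The within-cluster fold change was not called (-1.17 ± 0.440 with the block, edgeR adjusted p = 0.299). The share of disc cells in this cluster, given above, moved with the level of Cxcl13 in disc cells as a whole, and its part in the fall was not tested.

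Cxcl14 stood at 43.3 and 47.2 CPM in control and injured disc cells of round 1 and at 13.8 and 56.6 in round 2. Both injured libraries were above both controls, as for 16.7% of all genes, but the round 1 libraries differed by a ratio of only 1.09 (0.785 to 1.55), while round 2 gave 4.10. Free RNA held Cxcl14 at 56.6 and 15.8 CPM in the injured libraries and 16.1 in control round 2, above the disc-cell level in injured round 1 and control round 2, and its part in these values was not tested. In the inner class the blocked fit called Cxcl14 higher (1.06 ± 0.331, edgeR adjusted p = 0.0277). It did not without shared barcodes (0.99, edgeR adjusted p = 0.235) or without the block (0.88, edgeR adjusted p = 0.793). In that class the round 1 ratio was 0.979, and 1 cell held 25 of the 36 UMIs of control round 1, so the level there was 15 CPM without it. An unnamed cluster led by Ccl11 and Dpep1 had more, 544 CPM in its 267 cells of control round 2, but its cells had a median of 385.5 UMIs.

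Cxcl12 was near 0 in the inner class, at 1.35, 0.523, 0.764 and 0.592 CPM in control 1, injured 1, control 2 and injured 2, and stood in the outer class at 91.2, 41.8, 47.6 and 63.7 CPM. Free RNA held Cxcl12 at 150 and 43.4 CPM in the injured libraries and at 38.5 in control round 2. The outer-class level was thus below free RNA in injured round 1 and above it in both libraries of round 2, and how much of it is background was not tested. In endothelial-like cells it stood at 248 and 145 CPM in round 1 and 3575 and 1389 in round 2, from 7, 25, 32 and 59 UMIs. The round 1 injured value was no higher than free RNA, and the unnamed Ccl11-led cluster stood higher in that library, at 354 CPM from 4 UMIs. The injured to control ratio in disc cells was 0.200 in round 1 and 1.90 in round 2, opposite directions, and the log2 fold change was 0.02 ± 0.884 without the block and -0.23 ± 0.648 with it (edgeR adjusted p = 0.896).

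Cxcl5 was confined in disc cells to the outer class, apart from 2 UMIs in the inner class of injured round 2. The outer class held 0 UMIs in both controls, 7 in injured round 1 and 171 in injured round 2, or 19.5 and 52.8 CPM. In round 2 this was 7.04 times the limit for 0 UMIs in its control, and the counting interval of the ratio began at 5.66. The 60 control cells allowed no finer limit. The gene did not pass the filter on low counts there. In round 1 the 7 UMIs lay within what the limit for 0 UMIs in the control allows, so no difference was detectable there. In disc cells its value was -0.48 with a minimum of 500 genes and 0.31 with a minimum of 502 UMIs, neither called by edgeR. Why the direction differed was not tested. Within injured round 2 it stood at 50.2 CPM in the cluster led by Aspn and Cthrc1, a collagen-rich fibroblast pattern, and at 96.4 CPM in the dividing cluster. A single control cell of round 1, in the unnamed Ccl11-led cluster, held 17 Cxcl5 UMIs.

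Cx3cl1 was rare and even. It stood at 15.8 and 9.84 CPM in control and injured disc cells of round 1 and 8.84 and 10.0 in round 2. The groups overlapped, and the blocked log2 fold change was -0.17 ± 0.412 (edgeR adjusted p = 0.876). At 1000 UMIs per cell it was found in at most 0.975% of disc cells of any library.

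In the outer annulus-like class Cxcl2 had the largest fold change of the 6 chemokines that passed the filter there, at a low level. Different clusters made up this class in each group. A cluster led by Myoc and Angptl7 was 24 of 34 and 47 of 60 outer cells in controls but 14 of 48 and 60 of 491 in injured libraries, where an Aspn- and Cthrc1-led cluster held 246 cells in round 2. Cxcl2 stood at 56.1 and 856 CPM in control and injured round 1 and at 5.01 and 97.3 in round 2, from 8, 307, 2 and 315 UMIs. In this class Cxcl2, Cxcl14 and Ccl2 had only 1 control, but both injured libraries, at the filter of 26.4 CPM. For Cxcl2 both injured libraries were above both controls, as for 25.3% of all genes. The blocked fit, which called 372 of 5125 genes (7.26%, of which 3.57% higher; 90, or 1.76%, without the block), gave a rise of 3.95 ± 0.492 (edgeR adjusted p = 0.000139). Without the block the Cxcl2 value was 4.25 ± 1.09 (edgeR adjusted p = 0.0750). With no filter on low counts, where 266 of 16867 genes were called, it was called (4.32, edgeR adjusted p = 1.3e-09). A single cell of the dividing cluster held 199 of the 307 UMIs in injured round 1, and without it the level was 331 CPM. With the dividing cluster left out, where 7.57% of genes were called with the block, the value was 2.67 ± 0.553 (edgeR adjusted p = 0.000906), and without the block 2.55 (edgeR adjusted p = 0.166).

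The outer Cxcl2 value also depended on which cells entered the class. It was 0.69 with a minimum of 500 genes, 0.90 with under 10% mitochondrial UMIs and -0.61 with a minimum of 502 UMIs in every library, none of them called by edgeR without a block. Neutrophil markers moved with it: their summed level in the outer class was 21.1 and 480 CPM in control and injured round 1 and 0 and 10.5 in round 2, with 6 of 9 markers detected and Csf3r, Ly6g and Mmp8 at 0. The macrophage marker sum was 0 and 61.3 CPM in round 1 and 2.50 and 32.4 in round 2, with 11 of 13 detected and Adgre1 and Fcgr1 at 0. Free RNA stood above the outer class in every library where it was measured, at 1076 CPM against 856 and 413 against 97.3 in the injured libraries and 150.3 against 5.01 in control round 2. The part of these in the result was not tested.

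The other outer-class chemokines were not called with the block. Cxcl1 stood at 133 and 335 CPM in round 1 but 115 and 80.6 in round 2, opposite directions. Free RNA held Cxcl1 at 400.3 and 126 CPM in the injured libraries, above the outer class in both, and at 91.3 in control round 2. Ccl2 stood at 91.2 and 142 in round 1 and 17.5 and 101 in round 2 (1.497 ± 0.508 with the block, edgeR adjusted p = 0.0863), and was called without shared barcodes, with 11% of all genes (1.48, edgeR adjusted p = 0.0276) and without the dividing cluster (1.497, edgeR adjusted p = 0.0457). Free RNA held Ccl2 at 98.3 and 178 CPM in the injured libraries and 53.3 in control round 2, so it lay above the outer class in both libraries of round 2. Whether the injury effect differed between classes was tested directly. Of 9283 genes, 18 (0.194%) had a class by injury interaction, and none was a chemokine of the 9. The outer effect of Cxcl2 exceeded the inner one by 2.22 ± 0.679 (edgeR adjusted p = 0.334), and that of Cxcl1 fell below it, by -1.33 ± 0.614 (edgeR adjusted p = 0.689).

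Cells outside the disc classes also carried these transcripts. Macrophage-like cells, of which there were 38 in injured round 1 and 89 in injured round 2 but 1 and 3 in controls, had Cxcl2 at 3723 and 3603 CPM in the injured libraries. Their Ccl2 level was 739 and 1601 CPM and their Ccl7 level 649 and 445. They held 1.6% and 5.6% of the Cxcl2 UMIs of those libraries. Mural-like cells had Cxcl1 at 3096 CPM in 16 cells of injured round 1 and 368 CPM in 19 cells of injured round 2. Macrophage markers summed to 25.3, 14.1, 8.84 and 19.5 CPM in disc cells of control 1, injured 1, control 2 and injured 2, with 12 of 13 detected and Adgre1 at 0, and to 64.8, 281, 197 and 303 CPM in all cells. Neutrophil markers in disc cells summed to 42.2, 51.2, 4.42 and 17.7 CPM, with all 9 detected.

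Receptors for the ligands were few. Cxcr2, the receptor of the 3 neutrophil attractants, had 3 UMIs in all 3846 cells, 1 in injured round 1 and 2 in injured round 2, and no cluster was named neutrophil-like. Ccr2, the receptor of Ccl2 and Ccl7, stood at 106 and 231 CPM in macrophage-like cells of the injured libraries and had 1 UMI in all disc cells. Cxcr4 stood at 470 and 311 CPM in the same macrophage-like cells. Ackr1, which binds many chemokines on vessel walls, stood at 284 and 330 CPM in endothelial-like cells of the injured libraries. Of 18 receptor genes, Ackr2 and Ackr3 passed the filter in disc cells and neither was called. Ackr3, a scavenger of Cxcl12, stood at 137, 105, 216 and 236 CPM (blocked log2 fold change -0.06 ± 0.264, edgeR adjusted p = 0.935).

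Other genes of the chemokine system were taken from lists, with counts for the blocked edgeR fit of disc cells, where 1.66% of all genes were called higher and 1.91% lower. Without the block none of the list genes was called in disc cells or the inner class. Among 25 other chemokine ligands, 24 were in the files, 7 passed the filter in disc cells, and no call is given as a result for the 2 that the fit called, Ccl5 and Cxcl3, which passed the filter only through the injured libraries. Ccl5, a T cell and monocyte attractant, stood at 2.11 and 15.4 CPM in round 1 and 0 and 12.9 in round 2. Cxcl3, a close relative of Cxcl2, was at 0 in both controls and at 7.05 and 3.30 CPM in the injured libraries.

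Of 20 NF-kappaB pathway and feedback genes, all of which passed the filter in disc cells, 2 rose and 1 fell with the block, and their median log2 fold change was 0.17. Bcl3, a nuclear co-factor of the pathway, went from 5.27 to 17.4 CPM in round 1 and from 5.52 to 19.8 in round 2 (1.87 ± 0.397, edgeR adjusted p = 0.0308). Tnfaip2 rose by 1.49 ± 0.323 (edgeR adjusted p = 0.0333). Icam1, an adhesion molecule for leukocytes, fell by 1.504 ± 0.252 on the log2 scale, from 377 to 118 and from 87.3 to 32.1 CPM (edgeR adjusted p = 0.0114). The inhibitor Nfkbia was not called, at 612, 500, 726 and 625 CPM. Without shared barcodes the calls of Bcl3 and Tnfaip2 in disc cells were lost and that of Icam1 held.

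Of 23 inducing cytokines and receptors, 17 passed, 1 rose and 1 fell in disc cells with the block, and the median was 0.07. Csf2, a growth factor for myeloid cells, went from 0 to 32.8 CPM and from 7.73 to 22.0 CPM (edgeR adjusted p = 0.0483), with only 1 control at the filter. Il1r1, the interleukin 1 receptor, fell from 233 to 73.3 and from 86.7 to 47.2 CPM (edgeR adjusted p = 0.0456). Both calls were lost without shared barcodes. Il1b stood at 1.30 CPM at most in disc cells and did not pass the filter. Of 14 genes that process or scavenge chemokines, 9 passed and 0 were called by edgeR, with the protease Mmp3 at 4074, 5360.0, 527 and 1029 CPM.

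Of 20 immediate early and dissociation response genes, 5 fell and 0 rose in disc cells, and their median was -1.05, beside -0.01 over all genes. The 5 were Fos, Egr1, Atf3, Nr4a1 and Myc, transcription factors that are switched on within minutes to hours of cell stress. Fos stood at 408 and 81.8 CPM in round 1 and 1512 and 614 in round 2 (edgeR adjusted p = 0.0226). Without shared barcodes only Myc of the 5 was still called. These 5 genes moved opposite to Cxcl1 and Cxcl2, and their part in that change was not tested.

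The blocked fit of the inner class, where 4.49% of all genes were called higher and 3.96% lower, called more list genes. Bcl3 and Tnfaip2 rose and Icam1 fell again, by edgeR also without shared barcodes. Among cytokines and receptors Csf2 and the receptor Tnfrsf1b rose, each with only 1 control at the filter, and Il1r1 and Il18 fell. Without shared barcodes the calls of Csf2 and Il1r1 held and those of Tnfrsf1b and Il18 were lost. Of the other ligands Ccl5 and Cxcl3 again passed the filter only through the injured libraries, and Cxcl10, an interferon-induced ligand, fell by 0.91 on the log2 scale (edgeR adjusted p = 0.0479). The Cxcl10 call was lost without shared barcodes. Among immediate early genes Fos, Fosb, Egr1, Ier2, Nr4a1 and Myc fell, while Ier3 rose from 1263 to 2739 and from 654 to 1801 CPM (edgeR adjusted p = 0.0209). The falls of Fosb and Ier2 were lost without shared barcodes.

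The blocked fit of the outer class, where 3.57% of all genes were called higher and 3.69% lower, called 9 immediate early genes lower and 0 higher: Fos, Junb, Atf3, Zfp36, Dusp1, Klf2, Hspa1a, Nr4a1 and Myc. Without the block none of the 9 was called, nor was Il33 (edgeR). Il33, an alarm cytokine, fell from 105 to 44.6 and from 103 to 24.4 CPM with the block (edgeR adjusted p = 0.0143). Only 1 of its injured libraries reached the filter of 26.4 CPM. Vcam1, another adhesion molecule, was at 0 in both controls and at 36.2 CPM in both injured libraries. It passed the filter only through the injured libraries, so its call is not given as a result. No other list gene was called in that fit. Without shared barcodes the block called more of all genes, 5.34% higher and 5.62% lower. That fit called 15 immediate early genes lower, Tnfaip2 higher (edgeR adjusted p = 0.0288) and Mmp3 higher (1.75, edgeR adjusted p = 0.00699), and Il33 was still called lower.

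The genes whose level varied most like each chemokine were ranked by Pearson r of log2(CPM + 1) over 32 sums per library and cluster, which share libraries and depth, so r is a description. Cxcl1 was most like Chic2 (0.855), Nfkbiz (0.801), Map2k3 (0.801), Nfkb1 (0.795) and Cebpg (0.790). Of these, Nfkbiz and Nfkb1 belong to the NF-kappaB pathway. Cxcl2 was most like Tnfrsf21 (0.783), Nme1 (0.755) and Cxcl1 (0.755). Ccl2 and Ccl7 ranked first for each other (0.794), and Ccl2 was next most like Rab5if (0.768) and Tnfaip2 (0.720).

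For the remaining chemokines the 3 genes ranked first are given. Cxcl5 was most like the matrix genes Tnn (0.948) and Cthrc1 (0.872) and the cell cycle gene Cdk1 (0.825). Cxcl12 was most like Akap12 (0.872), Mmp2 (0.863) and Rarres2 (0.844). Cxcl13 was most like Irgm1 (0.664), Msmp (0.662) and Cnmd (0.634), the last a marker that leads its cluster. Cxcl14 was most like Plxdc2 (0.842), Arhgef40 (0.825) and the matrix gene Fbn1 (0.820). Cx3cl1 was most like Ass1 (0.751), Tram2 (0.731) and Sept1 (0.724), at levels near 1 UMI per positive cell.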

How the data were processed

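The authors deposited whole-number UMI counts per gene and barcode, made with Cell Ranger (6.0.0 for control round 1, 4 for the others) per the file headers, on mm10 with Chromium version 3 chemistry per the labels. The counts as deposited were not normalized; the control matrix of round 1 lists only barcodes with at least 502 UMIs. Barcodes with at least 250 genes were kept, and clustering used genes in at least 5 cells, per the minimums in the series text. The summed counts held all listed genes. No doublets were called or removed, and no mitochondrial filter was used. Cells were scaled to 10000 UMIs and log-transformed, and 2000 variable genes (without the 9 chemokines) gave 30 principal components and a graph of 20 neighbours, clustered by Leiden (leidenalg 0.10.2) at resolution 1. A cluster was named with at least 3 markers; rebuilt names can differ from those of the authors. A cluster stayed unnamed if over 50% of its control barcodes of round 1 were among those with similar depth in the other library.

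Counts were summed per library and cell group and tested with edgeR 4.0.16 in R 4.3.3 (default filter, TMM, two-sided quasi-likelihood test, Benjamini-Hochberg, called at an adjusted p under 0.05), and checked on simulated data. With 2 libraries per group, p-values measure the spread between pooled libraries. The block leaves little spread to estimate for a single gene, so blocked p-values rest largely on spread shared across genes. The labels put control and injured discs of a round in the same animals; same-round deviations correlated at 0.508 (all cells), 0.468 (disc cells), 0.529 (inner class) and 0.210 (outer class), so the round block is printed where it changes a call. Counting intervals are 95% and cover counting error only. The limit for 0 UMIs is 3 counts per library. Named genes were all 9 members and the genes most alike each member, of 5 ranked. Of 6 fixed lists, genes called in the blocked fit of disc cells or of either annulus class were named, with otherwise the most abundant. The members and lists were chosen with earlier results of these data known. Alternatives were other tools, filters, cell minimums, clusterings and sets of libraries.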

Additional observations from a re-analysis of the deposited data

How the results depend on the processing

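Without a block the number of genes called by edgeR was unstable. In all cells it was 14, against 736 with the replicate block by round, 181 by DESeq2, 378 with no filter on low counts, 0 at a minimum of 500 genes, 3 without shared barcodes (242 with the block as well) and 30 at a UMI minimum. In disc cells it was 2, against 400 with the block, 123 by DESeq2, 298 with no filter, 0 at 500 genes, 0 at under 10% mitochondrial UMIs and 136 with the block without shared barcodes. In the inner class 13 became 905 with the block, 92 by DESeq2, 22 with no filter, 0 with the chemokines among the variable genes and 534 with the block without shared barcodes. In the outer class 90 became 372 with the block, 266 with no filter, 153 at 500 genes, 54 at under 10% mitochondrial UMIs, 10 with the chemokines among the variable genes, 560 with the block without shared barcodes, and 47 or, with the block, 353 without the dividing cluster. In the Grem1-led cluster 0 became 59 with the block. Leaving out 1 library gave 126 to 273 calls in all cells, 0 to 124 in disc cells, 1 to 219 in the inner class, 31 to 520 in the outer class and 0 to 29 in the Grem1-led cluster. The lone library of a group is then assumed to vary like the others.

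In disc cells with no filter, Cxcl1 (1.70) and Cxcl2 (1.68) were called, as with the block (1.58 and 1.67). Cxcl13 was called with no filter (-5.02), and its value with the block (-5.00) is given with no call because its filter was passed only through the controls. Cxcl5, at 0 in both controls, was tested only with no filter or in other sets of cells or libraries. Leaving out 1 library moved the disc-cell log2 fold change from -0.24 to 3.42 for Cxcl1, 0.36 to 3.07 for Cxcl2, -10.01 to -4.31 for Cxcl13, 0.04 to 3.27 for Ccl2, -0.85 to 2.45 for Ccl7, 0.32 to 2.03 for Cxcl14, -2.05 to 0.82 for Cxcl12 and -0.62 to 0.28 for Cx3cl1. For the inner class it moved Ccl2 from -0.035 to 3.12, Ccl7 from -0.57 to 2.35 and Cx3cl1 from -0.74 to 0.067, and in the outer class Cxcl1 from -0.58 to 1.30, Cxcl12 from -0.76 to 0.17 and Ccl7 from -0.77 to 1.39. In the Grem1-led cluster it moved Cxcl2 from -0.14 to 2.98, Cxcl14 from -0.12 to 2.35, Ccl2 from -0.94 to 2.79 and Ccl7 from -0.27 to 1.45. The injured minus control difference in the disc-cell share with Cxcl12 moved from -0.279 to 4.35 percentage points. In disc cells Cxcl1 and Ccl7 turned negative without injured round 1, and Ccl7 stood at -7.9e-05 without control round 2. Cxcl12 in disc cells (0.02) turned to -0.23 with the block, -0.024 by DESeq2, -0.14 at 500 genes, -0.23 at under 10% mitochondrial UMIs, -0.050 without shared barcodes and -0.29 with the block as well. In the outer class at the UMI minimum Cxcl1 was -2.27, Cxcl2 -0.61, Ccl2 -2.51 and Ccl7 -2.33. Outer Ccl7 (0.02) was also -0.049 by DESeq2, -0.58 at under 10% mitochondrial UMIs, -0.013 without shared barcodes and -1.67 with the chemokines among the variable genes, and outer Cxcl12 (-0.28) was 0.17 at 500 genes, 0.014 at under 10% mitochondrial UMIs and 0.0048 with the block without the dividing cluster. In the Grem1-led cluster Ccl2 (-0.08) was 0.81 with the block. The injured minus control difference in the share of disc cells with Cxcl12 was 2.04 percentage points before thinning and -0.326 after it. The cause of these changes was not tested. Of 206 log2 fold changes under the settings that kept all libraries, 166 kept their direction and side of the threshold. The Grem1-led cluster fits, the fits without the dividing cluster and the block without shared barcodes were added after the data were seen.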
